A study of Arabidopsis thaliana with 12 samples.

Results

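The leaf transcriptome described here is that of Arabidopsis thaliana plants carrying the trb45 mutations and clf29 together, set against that of wild-type Col-0 plants (WT). It rests on 6 of the 12 libraries of the study, 3 of trb45 clf29 and 3 of WT, chosen by the genotype in their labels and read across the 19138 genes with enough counts to test, of 28775 genes in the table. trb45 clf29 plants carry mutations of TRB4 and TRB5, from the single line named trb45-1, and the clf29 mutation of CLF. WT plants carry none of these, and no group received a treatment. RNA came from mature leaves of soil-grown plants at day 21 in long days, and polyadenylated RNA was sequenced in strand-marked libraries. The 3 clf29 and 3 trb45 libraries, grown and harvested under the same protocol, are used only where a value of the combined mutant is set beside its single mutants. The study's design also names another trb45 line and a trb123 mutant, which are not analysed here. Because trb45 is represented by 1 line, effects of other changes carried by that line and effects of the TRB4 and TRB5 mutations cannot be told apart. The labels do not say whether replicates were separate plants or pools, so p-values measure the spread between these samples, which may be partly technical.

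Polycomb repressive complex 2 (PRC2) places trimethylation on lysine 27 of histone H3, a mark of silenced chromatin. In Arabidopsis leaves its main catalytic subunits are CURLY LEAF (CLF) and SWINGER (SWN), and CLF is best known for keeping the floral homeotic gene AGAMOUS off, so that clf leaves curl and plants flower early. Telomere repeat binding (TRB) proteins carry a Myb-like domain that binds the telobox, a short telomere-like motif, and TRB1, TRB2 and TRB3 are known to recruit PRC2 to such sites.

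The deposited counts came to 53545914 to 53682961 per library in trb45 clf29 and 53923647 to 54047574 in WT. The 10 most abundant genes held 16.14% to 16.96% of the counts in trb45 clf29 and 14.78% to 16.37% in WT. The clf29 and trb45 libraries held 45519206 to 54215882 counts. Spearman correlations between libraries of 1 group lay between 0.989 and 0.997. Most small counts were even numbers (79.7% to 81.3% in trb45 clf29 and 78.4% to 79.4% in WT, among counts of 1 to 20). Both mates of a read pair may therefore have been counted, and counting intervals below take 2 counts as 1 pair. Levels are given in CPM, counts per 1000000 counts, on library totals scaled by the trimmed mean of M-values (TMM), and are compared between libraries for 1 gene, not between genes. Per-library values of trb45 clf29 are given in the order replicate 1, replicate 2 and the library whose column carries no number, and those of WT in the order replicate 1, 2 and 3. Intervals cover counting error only. Floors divide the trb45 clf29 mean by 3 counts per WT library and allow for counting error in WT only.

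A large share of the leaf transcriptome differed between the genotypes, mostly by small amounts. In trb45 clf29, 9286 genes were called at an adjusted p below 0.05 by edgeR's quasi-likelihood test, which is 48.5% of the genes tested. Of these, 4953 were higher in trb45 clf29 (25.9% of the genes tested) and 4333 were lower (22.6%). The median absolute log2 fold change of the called genes was 0.51, and the median over all genes tested, called or not, was 0.02. Changes of at least 2-fold were seen in 983 genes that were higher (5.14%) and 771 that were lower (4.03%). At 4-fold or more the counts were 374 higher and 150 lower, and at 16-fold or more 110 higher and 16 lower. Libraries of the 2 genotypes did not overlap in 57.0% of the genes tested, and 8880 of the called genes were among these. Scaling by library size alone, without TMM, moved the median of all genes by -0.12 on the log2 scale and gave 3537 higher and 6010 lower calls, so that 37.0% of the calls were higher, against 53.3% with TMM. In bulk tissue, fewer cells of a type and less RNA per cell cannot be told apart.

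**Figure D1:**
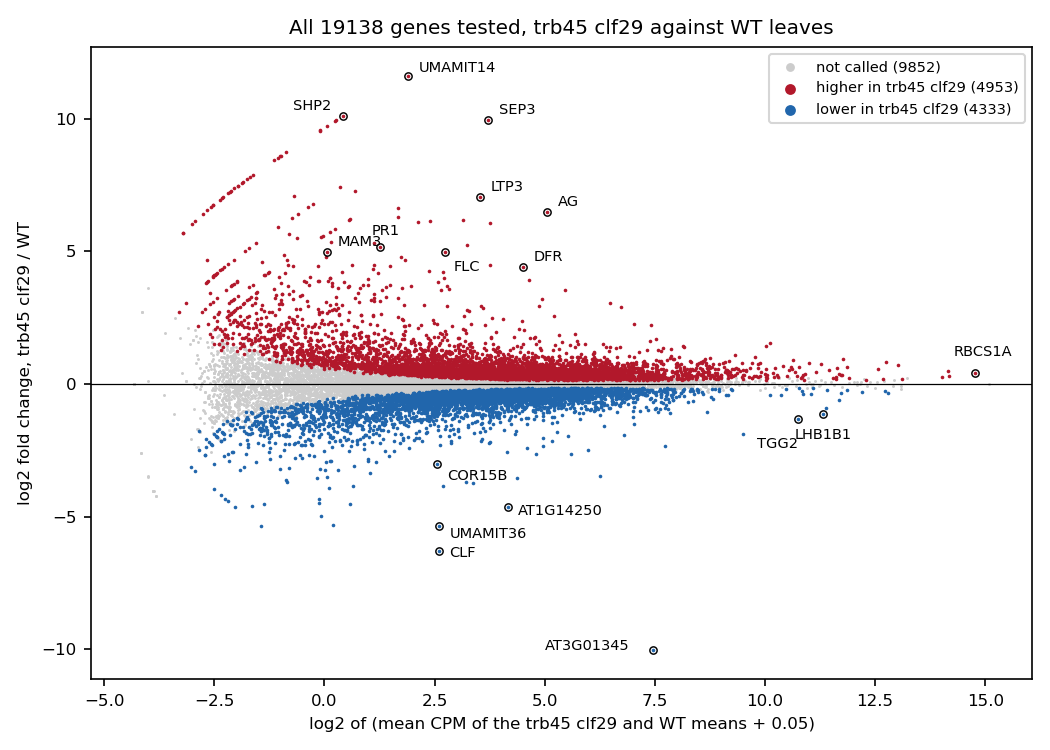
Log2 fold change of trb45 clf29 over WT against mean level (log2 CPM) for the 19138 genes tested, with 1 point per gene, coloured by whether edgeR called it higher (4953), lower (4333) or neither (9852). The largest increases extend further from 0 than the largest decreases, and most called genes lie close to the zero line, with a median absolute log2 fold change of 0.51.

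The mutated genes were checked first. TRB4 (AT1G17520), whose name and that of TRB5 come from a list written for this work, measured 1.24, 1.31 and 1.25 CPM in trb45 clf29, against 6.2, 4.91 and 5.43 CPM in WT. TRB5 (AT1G72740) measured 1.12, 1.72 and 1.15 CPM in trb45 clf29, against 18.2, 16.7 and 16.7 CPM in WT. CLF (AT2G23380), the PRC2 catalytic subunit, measured 0.0997, 0.154 and 0.196 CPM in trb45 clf29, against 12.3, 10.9 and 12.5 CPM in WT. All 3 mutated genes were lower in every trb45 clf29 library than in any WT library, CLF the most (log2 fold change -6.29 with an SE of 0.30, edgeR adjusted p = 5.75e-10), TRB5 by 3.69 and TRB4 by 2.12 on the log2 scale with edgeR adjusted p-values of 1.1e-08 and 1.6e-06. The other telobox-binding family members TRB1, TRB2 and TRB3 overlapped between genotypes and were not called, with log2 fold changes of 0.08, -0.21 and -0.05. Without WT replicate 2, 1 of these 3 was called lower.

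Because TRB proteins bind the telobox, the motif AAACCCTA was searched on both strands in the window from 250 bases before to 50 bases after each RefSeq gene start (TAIR10.1). Of 19118 windows of genes tested, 5.60% held it, against 5.52% for genes called higher, 6.68% for genes called lower and 5.17% for genes not called. Among genes changed at least 2-fold the shares were 4.48% of those higher and 7.44% of those lower. No test of these shares was made. The sites of 8 genes whose values are given in the text are printed here because they show the motif beside starts of genes that moved in either direction. Each is written 5′ to 3′ on the strand of its gene, with the telobox or its reverse complement in capitals and the distance of the motif's first base from the gene start. Sequences and positions are from the RefSeq genome TAIR10.1, while the submitters' processing notes name TAIR10.
LTP3, chr5:23928888-23928917, plus strand, 55 bases before the start: caactactaacAAACCCTActtagtcatca
LTP4, chr5:23925907-23925936, minus strand, 33 bases after the start: caactactaacAAACCCTActtagtcatca
TGG2, chr5:9072693-9072722, plus strand, 4 bases before the start: aaaggctatatAAACCCTAgattggcacaa
TGG1, chr5:9082390-9082419, minus strand, 24 bases before the start: aaaggctatatAAACCCTAgattggcacta
PR2, chr3:21190059-21190088, minus strand, 110 bases before the start: ttgagctagttAAACCCTAttgatagctac
PAP17, chr3:6089325-6089354, plus strand, 45 bases before the start: aaacctaaactTAGGGTTTtgtatatagat
IAA5, chr1:5366716-5366745, minus strand, 237 bases before the start: ggctgagaaagAAACCCTActttgtcggta
CLF, chr2:9955113-9955142, plus strand, 33 bases after the start: gcccaaacaaaTAGGGTTTaagagcccatt
The LTP3 and LTP4 sites were identical in 30 of 30 bases and the TGG2 and TGG1 sites in 29 of 30. The lipid transfer protein genes LTP3 and LTP4 rose in trb45 clf29 (log2 fold changes 7.03 and 6.28), and the myrosinase genes TGG2 and TGG1 fell (-1.33 and -0.61). The glucanase gene PR2 (2.50) and the acid phosphatase gene PAP17 (0.85) rose, and the auxin-response gene IAA5 (-1.1) and the mutated CLF fell. Genes with a telobox whose sites are not printed included TRB3, 221 bases before its start (-0.05, not called), and WSD1 (0.28). No telobox was found in the windows of SEP3, AG, SHP2, FLC, UMAMIT14 or AT3G01345, which were among the strongly changed genes. A match is a description of these letters and not of binding.

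Changes in other Polycomb genes were small, and several calls were lost when 1 library was left out. Of 5 PRC2 genes tested besides CLF, 4 were lower and 0 higher, with a list median of -0.32 against 0.02 over all genes. List medians are log2 fold changes of the tested members, to be read against 0.02 here and below, and list counts against 25.9% higher and 22.6% lower over all genes. EMF2, the zinc finger subunit, averaged 14.2 ± 1.09 CPM in trb45 clf29 and 19.5 ± 1.58 CPM in WT (SD, n = 3 each here and below; log2 fold change -0.46 with an SE of 0.10, edgeR adjusted p = 0.00101). Smaller decreases were found in SWN, the other catalytic subunit (-0.34, with overlapping libraries), and in the WD40 subunits MSI1 (-0.32) and FIE (-0.23). SWN and FIE both lost their calls without WT replicate 1, trb45 clf29 replicate 1 or trb45 clf29 replicate 2, which left 2 lower. SWN also lost its call without WT replicate 3, and FIE without WT replicate 2. Among 9 PRC1 and partner genes tested, 2 were called higher, the VIN3-family PHD proteins VRN5 (0.28) and VEL1 (0.19), and 3 lower, the ubiquitin ligases DRIP1 (-0.51) and RING1A (-0.43) and the H3K27me3 reader LHP1 (-0.27). The list median was -0.10. Scaled by library size alone, 0 were higher and 4 lower. Leaving out 1 library at a time gave 0 to 3 higher and 1 to 2 lower calls. RING1A lost its call in every such fit except that without the unnumbered trb45 clf29 library, and LHP1 without any of the WT replicates or without the unnumbered trb45 clf29 library. VEL1 lost its call without WT replicate 2, WT replicate 3 or trb45 clf29 replicate 1, and VRN5 without WT replicate 3. Among 4 H3K27 demethylase genes, 0 rose and 2 fell, REF6 (-0.28) and JMJ32 (-0.54), with a list median of -0.30. JMJ32 lost its call in every fit without 1 library except that without WT replicate 1, and such fits gave 1 to 2 lower.

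Most DNA methylation genes tested were lower. 6 of 9 tested members fell and 0 rose, with a list median of -0.79 and a summed level of 120 to 133 CPM in trb45 clf29 and 165 to 191 CPM in WT. CMT3 (AT1G69770), the methyltransferase of CHG sites, measured 7.34, 6.58 and 6.55 CPM in trb45 clf29, against 16.5, 12.9 and 15.1 CPM in WT. MET1 (AT5G49160), which maintains CG methylation, measured 17.1, 16.2 and 15.4 CPM in trb45 clf29, against 31.1, 28.6 and 30.3 CPM in WT. Neither gene's libraries overlapped between genotypes (log2 fold change -1.12 with an SE of 0.10, edgeR adjusted p = 5.8e-07 for CMT3, and log2 fold change -0.88 with an SE of 0.07, edgeR adjusted p = 9.62e-08 for MET1). The other decreases were in CMT2, a methyltransferase of CHH sites (-1.21), DDM1, a chromatin remodeller needed for methylation (-0.79), and the demethylases DML3 (-1.75) and ROS1 (-0.28), whereas DRM2, the RNA-directed methyltransferase, was not called (-0.19).

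Many of the widest increases were in genes that WT leaves hardly expressed. 17 genes had 3 counts or fewer in each WT library and more than 3 in every trb45 clf29 library with a mean of at least 1 CPM there, 7 of them with no count in any WT library, and 0 genes showed the reverse. SEP3 (AT1G24260), a floral organ identity factor, measured 26.4, 26.7 and 25.5 CPM in trb45 clf29, against 0, 0.0372 and 0.0355 CPM in WT, a count ratio of 1096 (counting interval 303 to 9059). UMAMIT14 (AT2G39510), an amino acid exporter of the vasculature and seed coat, measured 8.63, 6.19 and 7.38 CPM in trb45 clf29, against 0 CPM in every WT library, at least 138-fold higher when WT is set at 3 counts per library. Its relative UMAMIT29, also an amino acid exporter, was at least 42-fold higher, and the carpel and fruit gene SHP2 at least 48-fold higher. Every trb45 clf29 library was above every WT library for these genes. SHP2 has a close paralogue, SHP1, so reads shared between them could be misassigned. The beta-glucosidase gene BGLU11 had a count ratio of 175 (counting interval 40.4 to 2440), the calmodulin-like gene CML41, which acts at plasmodesmata, one of 77.7 (counting interval 26.2 to 380), and an aspartyl protease gene, AT4G22050, one of 206 (counting interval 36.5 to 8165). The TRAF-like gene AT2G25330, without counts in WT, was at least 43-fold higher. Fitted log2 fold changes of such genes depend on the prior count and are no bound. Without WT replicate 3 that of BGLU11 was 8.09, against 7.27 with all libraries, and without WT replicate 1 that of AT4G22050 was 10.01, against 7.42.

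Among called genes without overlap whose level averaged 1 CPM or more across both genotypes together, LTP3 (AT5G59320), AG (AT4G18960) and AT1G54575 were also among the 10 largest increases. LTP3, a lipid transfer protein, measured 15.3, 30.5 and 23.3 CPM in trb45 clf29, against 0.0696, 0.279 and 0.178 CPM in WT (log2 fold change 7.03 with an SE of 0.33, edgeR adjusted p = 5.12e-10). AG, the regulator of stamens and carpels that CLF is known to repress, measured 69, 63.6 and 64.1 CPM in trb45 clf29, against 0.627, 0.893 and 0.693 CPM in WT (log2 fold change 6.47 with an SE of 0.10, edgeR adjusted p = 7.33e-16). For both genes the 3 trb45 clf29 libraries lay far above all WT libraries. An uncharacterized gene, AT1G54575, averaged 6.19 ± 0.354 CPM in trb45 clf29 and 0.0601 ± 0.022 CPM in WT (log2 fold change 6.64 and SE 0.24).

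The 10 largest decreases, chosen in the same way, included CLF, and the first of them was AT3G01345, an uncharacterized gene, which measured 0.14, 0.328 and 0.528 CPM in trb45 clf29, against 345, 357 and 354 CPM in WT (log2 fold change -10.04 with an SE of 0.18, edgeR adjusted p = 3.75e-15). It averaged 0.101 CPM in clf29 and 0.17 CPM in trb45. UMAMIT36 (AT1G70260), of the same transporter family as UMAMIT14, measured 0.239, 0.231 and 0.391 CPM in trb45 clf29, against 11.7, 12.8 and 10.9 CPM in WT. The high-affinity nitrate transporter NRT2:1 (AT1G08090) measured 0, 0.0772 and 0.0783 CPM in trb45 clf29, against 1.36, 2.87 and 2.2 CPM in WT. Both transporters were lower in every trb45 clf29 library than in any WT library (log2 fold change -5.35 with an SE of 0.21, edgeR adjusted p = 5.79e-11 for UMAMIT36, and log2 fold change -5.30 with an SE of 0.49, edgeR adjusted p = 6.06e-07 for NRT2:1). PORA, a chlorophyll synthesis enzyme of etiolated seedlings, averaged 0.826 ± 0.356 CPM in trb45 clf29 and 11.9 ± 3.37 CPM in WT (log2 fold change -3.85 and SE 0.28). AT1G14250, a nucleoside phosphatase gene, averaged 1.39 ± 0.127 CPM in trb45 clf29 and 34.2 ± 0.917 CPM in WT (log2 fold change -4.62 and SE 0.18). AT3G59670, annotated as an elongation factor, averaged 1.43 CPM in trb45 clf29 and 19.2 CPM in WT (log2 fold change -3.75 and SE 0.10). Log2 fold changes of -3.92 and -3.83 were found for the neighbouring uncharacterized genes AT1G53541 and AT1G53542, and without trb45 clf29 replicate 1 these were -4.58 and -4.46. In trb45 and clf29, AT1G14250 averaged 1.63 and 28.8 CPM, AT3G59670 1.46 and 28.8 CPM, AT1G53541 0.0682 and 2.73 CPM, and AT1G53542 0.0811 and 3.65 CPM. None of these was called between trb45 clf29 and trb45. In the same order of mutants, NRT2:1 averaged 0.706 and 0.0634 CPM and PORA 2 and 4.84 CPM.

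Ranked by difference in CPM, which favours genes with high counts and is no comparison of levels between genes, most of the 8 largest gains were in photosynthesis genes. They were in the Rubisco small subunits RBCS1A, RBCS3B, RBCS2B and RBCS1B, in Rubisco activase (RCA), in the light-harvesting gene LHCB1.1, in the magnesium chelatase gene GUN5 and in THI1, which makes the thiazole part of thiamin. RBCS1A measured 33965, 29062 and 32525 CPM in trb45 clf29, against 23034, 25650 and 22669 CPM in WT (log2 fold change 0.42 with an SE of 0.09, edgeR adjusted p = 0.00116). RBCS1B measured 9318, 8462 and 8668 CPM in trb45 clf29, against 4848, 5357 and 4690 CPM in WT (log2 fold change 0.83 with an SE of 0.06, edgeR adjusted p = 1.03e-07). The 4 RBCS genes are closely similar copies, so their division of reads is uncertain, but each was higher in all 3 trb45 clf29 libraries. GUN5 averaged 7247 ± 239 CPM in trb45 clf29 and 4909 ± 75.5 CPM in WT (log2 fold change 0.56). THI1 averaged 4578 ± 46.5 CPM in trb45 clf29 and 2407 ± 213 CPM in WT (log2 fold change 0.93). LHCB1.1 lost its call without WT replicate 1, WT replicate 3 or trb45 clf29 replicate 1, and when scaled by library size alone.

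The 8 largest losses in CPM, ranked in the same way, included other antenna genes and myrosinases. LHB1B1 (AT2G34430), a light-harvesting gene of photosystem II, averaged 1609 ± 62.7 CPM in trb45 clf29 and 3520 ± 451 CPM in WT (log2 fold change -1.13 and SE 0.09). LHCB2.3, of the same antenna, averaged 1855 ± 105 CPM in trb45 clf29 and 3495 ± 257 CPM in WT (log2 fold change -0.91 and SE 0.07). LHCA4 and LHCA1, antenna proteins of photosystem I, had log2 fold changes of -0.35 and -0.26. TGG2 (AT5G25980), a myrosinase that hydrolyses glucosinolates in the mustard oil defence, measured 1135, 846 and 978 CPM in trb45 clf29, against 2298, 2723 and 2409 CPM in WT. Its tandem relative TGG1 (AT5G26000) measured 2696, 2490 and 2590 CPM in trb45 clf29, against 3883, 3933 and 4056 CPM in WT. Neither overlapped between genotypes (log2 fold change -1.33 with an SE of 0.12, edgeR adjusted p = 3.78e-07 for TGG2, and -0.61 for TGG1), and shared reads between these close copies are uncertain. AT5G42530, an uncharacterized gene, averaged 306 CPM in trb45 clf29 and 1144 CPM in WT (log2 fold change -1.90 and SE 0.23).

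Over a list of 34 nuclear photosynthesis genes the direction was mixed. The list does not hold the antenna genes LHB1B1 (-1.13) and LHCB2.3 (-0.91), which fell further than any of its members (lowest -0.35). 11 of the 34 tested members rose and 7 fell, with a list median of 0.06; with scaling by library size alone, 9 rose and 12 fell. Summed over the list the level was 257803 to 270186 CPM in trb45 clf29 and 222516 to 257827 CPM in WT. The Calvin cycle members and some photosystem II subunits, among them NPQ4, the sensor of non-photochemical quenching (0.34), and LHCB4.3 (0.83), were on the higher side, and LHCB4.2 (-0.35) and PSBO2 of the oxygen-evolving complex (-0.28) on the lower side.

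Floral organ genes were expressed in part in trb45 clf29 leaves. Of the 13 floral MADS-box genes tested, 8 rose, SEP3, SHP2 and AG among them, and 1 fell, with a list median of 2.27 (unchanged with the 6 members near 0 in 1 genotype set at their bound). The summed level was 121 to 128 CPM in trb45 clf29 and 15 to 16.5 CPM in WT. PI (AT5G20240), a petal and stamen gene, measured 1.99, 1.83 and 1.49 CPM in trb45 clf29, against 0.0348, 0 and 0.071 CPM in WT. Its partner AP3 (AT3G54340) measured 1.04, 1.25 and 1.33 CPM in trb45 clf29, against 0, 0 and 0.0355 CPM in WT. The ovule gene STK (AT4G09960) measured 1.16, 1.45 and 1.72 CPM in trb45 clf29, against 0, 0 and 0.0355 CPM in WT. None of these overlapped between genotypes. The count ratio was 101 (counting interval 17.7 to 4039) for AP3 and 121 (counting interval 21.2 to 4817) for STK, and PI had a log2 fold change of 5.54 (edgeR adjusted p = 2.13e-06), or 6.43 without WT replicate 3. Leaving out WT replicate 3, the only WT library with counts of AP3 or STK, moved the fitted log2 fold changes to 9.0 for AP3 and 9.25 for STK, against 6.40 and 6.66 with all libraries. SEP4, which WT leaves already expressed, averaged 22.5 ± 2.13 CPM in trb45 clf29 and 11.4 ± 0.402 CPM in WT (log2 fold change 0.98 with an SE of 0.08, edgeR adjusted p = 1.79e-07). AGL6, a gene of the ovule and floral organs, averaged 0.354 ± 0.175 CPM in trb45 clf29 and 0.0703 ± 0.0609 CPM in WT (log2 fold change 2.27 and SE 0.71, edgeR adjusted p = 0.0152). FUL, a gene of inflorescence and fruit identity, was lower (1.88 CPM in trb45 clf29 and 2.63 CPM in WT, log2 fold change -0.49 and SE 0.16, edgeR adjusted p = 0.0177). AGL6 lost its call without trb45 clf29 replicate 1 or the unnumbered trb45 clf29 library. FUL lost its call without trb45 clf29 replicate 2 or the unnumbered trb45 clf29 library, which left 0 lower in the list.

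Other genes of the floral programme were not called. AP1, the flower meristem identity gene, had no count in any trb45 clf29 library and averaged 0.0118 CPM in WT, LFY had no count in either genotype, and SEP1 overlapped, at 0.678, 0.637 and 0.607 CPM in trb45 clf29, against 0.574, 0.856 and 0.71 CPM in WT (-0.15). SEP2 averaged 0.111 CPM in trb45 clf29 and 0.0242 CPM in WT and was not called (edgeR adjusted p = 0.0909). SEP1 and SEP2 are close paralogues. Of 10 anther and tapetum marker genes, 4 were tested and 0 were called. LAP6, a polyketide synthase gene of pollen wall formation, made up most of their level, at 2.07, 2.58 and 2.11 CPM in trb45 clf29, against 2.38, 1.71 and 2.26 CPM in WT. Another 3 had no count in any of the 6 libraries, among them the male sterility gene MS1, and the summed level of all 10 was 2.15 to 2.89 CPM in trb45 clf29 and 1.77 to 2.54 CPM in WT. The median of the 4 was 0.26, or 0.54 with members near 0 set at their bound. Among carpel and ovule polarity genes, CRC and INO had no count in either genotype.

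**Figure D2:**
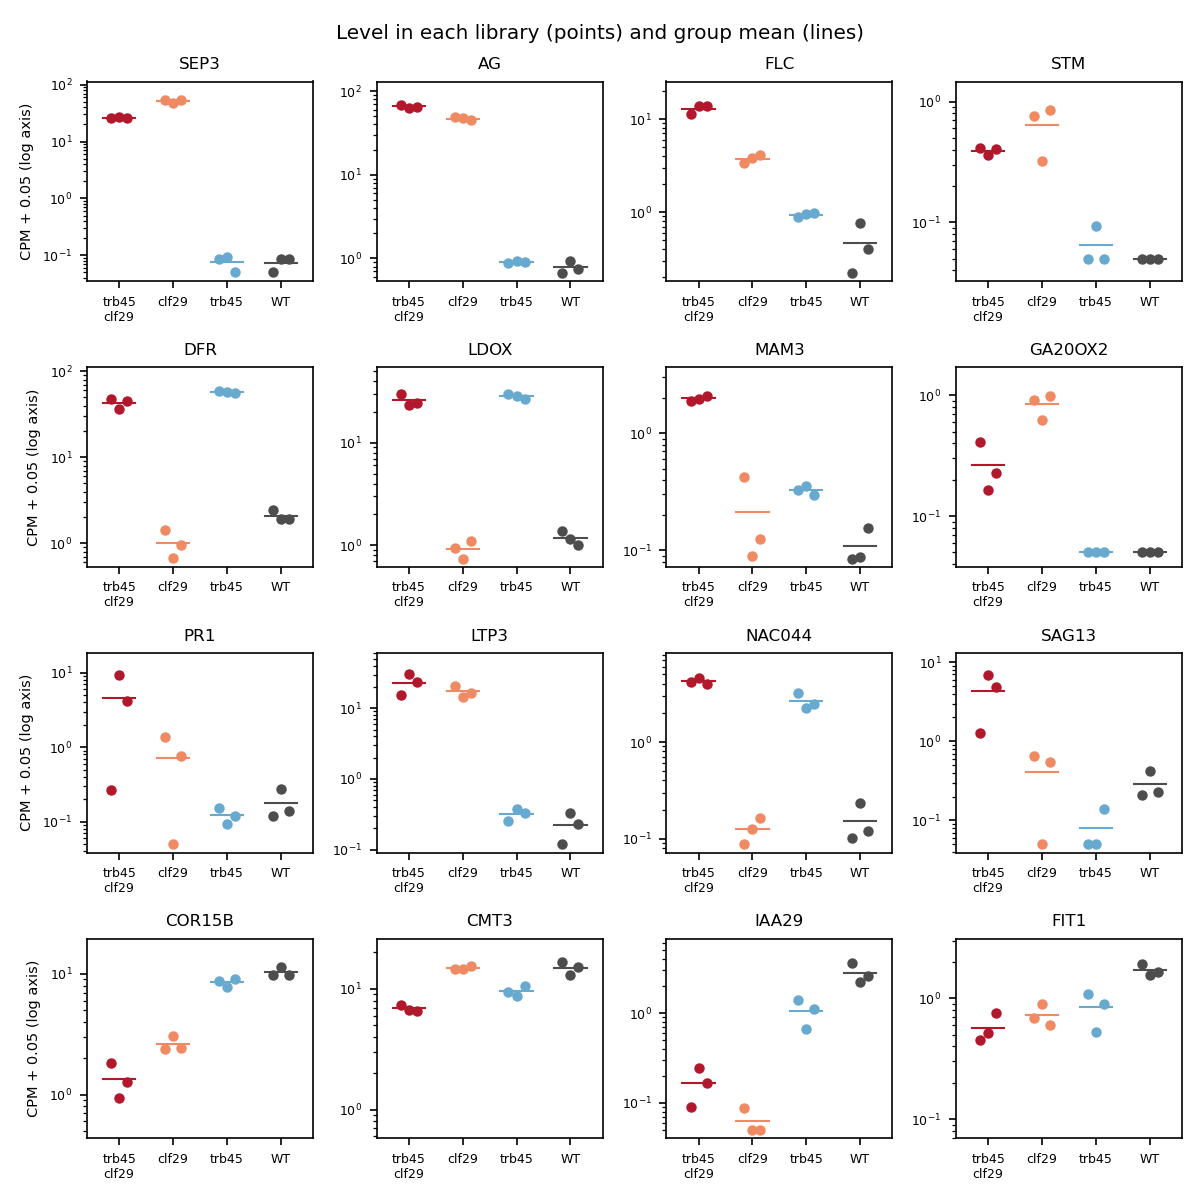
Level of 16 genes on a log axis (CPM + 0.05), with 1 point per library, a line at each group mean, and the groups trb45 clf29, clf29, trb45 and WT from left to right. For AG and FLC all 3 trb45 clf29 libraries sit above all WT libraries, for CMT3 and FIT1 all 3 sit below them, and for PR1 the trb45 clf29 libraries are widely spread.

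Flowering-time genes moved in both directions. FLC (AT5G10140), the central repressor of flowering and a PRC2 target, measured 11.2, 13.7 and 13.6 CPM in trb45 clf29, against 0.174, 0.707 and 0.355 CPM in WT, without overlap (log2 fold change 4.97 with an SE of 0.25, edgeR adjusted p = 1.19e-09; 5.59 without WT replicate 2). FT (AT1G65480), the leaf-made florigen, measured 0.957, 1.02 and 1.19 CPM in trb45 clf29, against 0.487, 0.335 and 0.533 CPM in WT, also without overlap (log2 fold change 1.22 with an SE of 0.32, edgeR adjusted p = 0.00554). SOC1 (AT2G45660), an integrator that promotes flowering, measured 8.27, 7.25 and 8.37 CPM in trb45 clf29, against 15, 13.5 and 14 CPM in WT and was lower in every trb45 clf29 library (log2 fold change -0.83 with an SE of 0.10, edgeR adjusted p = 7.77e-06). Of 9 activators tested 3 rose and 2 fell (list median 0.23). Besides FT, the increases were in AGL42, a SOC1 relative (2.41), and AGL17, a MADS-box gene without a count in WT. AGL17 measured 0.0797, 0.309 and 0.0978 CPM in trb45 clf29, a mean 3.01 times the level of 3 counts per WT library. Replicate 2 was the highest. The fitted log2 fold change of AGL17 was 6.14, or 5.28 without trb45 clf29 replicate 2. The other decrease was in FD, the bZIP partner of FT (-1.59). CO, the photoperiod activator of FT, was not called (0.15).

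Of 16 flowering repressors, 3 rose and 10 fell, with a list median of -0.51 and a summed level of 136 to 160 CPM in trb45 clf29 and 232 to 260 CPM in WT. Besides FLC, its relative MAF4 (0.99) and AP2 (0.39) rose, though MAF4 lost its call without WT replicate 2 or trb45 clf29 replicate 2. The members that fell included AP2-class repressors targeted by miR172. Of these, TOE1 (AT2G28550) measured 26.9, 38.2 and 35 CPM in trb45 clf29, against 71.3, 51.2 and 65.2 CPM in WT, and SNZ (AT2G39250) measured 3.35, 5.03 and 4.54 CPM in trb45 clf29, against 22.4, 15.5 and 19.2 CPM in WT. TOE3 averaged 1.52 ± 0.35 CPM in trb45 clf29 and 6.57 ± 1.56 CPM in WT. TEM2, a repressor of FT, measured 11.8, 12.2 and 12.5 CPM in trb45 clf29, against 44.1, 56.4 and 48.5 CPM in WT. In all 4 genes every trb45 clf29 library was below every WT library (log2 fold changes -0.91, -2.14, -2.11 and -2.03, edgeR adjusted p between 1.89e-08 and 0.000318). SVP, a MADS-box repressor, averaged 25.2 ± 1.22 CPM in trb45 clf29 and 39.6 ± 1.86 CPM in WT (log2 fold change -0.65 and SE 0.08, edgeR adjusted p = 1.28e-05).

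Of 6 SPL genes tested, the miR156-controlled factors of the juvenile-to-adult change, 4 fell and 1 rose (list median -0.63). SPL10 averaged 1.98 ± 0.345 CPM in trb45 clf29 and 6.74 ± 2.02 CPM in WT (log2 fold change -1.77 with an SE of 0.24, edgeR adjusted p = 3e-05). SPL2 averaged 10.1 ± 1.62 CPM in trb45 clf29 and 21.5 ± 3.38 CPM in WT (-1.09), and SPL9 and SPL11 were lower by 0.64 and 0.61 on the log2 scale. SPL4 was higher, at 4.98, 6.89 and 6.26 CPM in trb45 clf29, against 2.05, 2.4 and 2.11 CPM in WT (log2 fold change 1.47 with an SE of 0.16, edgeR adjusted p = 2.74e-06). SPL5 had no count in either genotype.

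A pair of meristem genes was called at low levels in trb45 clf29 leaves. STM (AT1G62360), the homeobox gene that keeps meristem cells undifferentiated, measured 0.359, 0.309 and 0.352 CPM in trb45 clf29, against 0 CPM in every WT library, at least 6.32-fold higher. KNAT1, a homeobox gene of the same class, measured 0.239, 0.231 and 0.235 CPM in trb45 clf29, against 0, 0 and 0.0355 CPM in WT, a count ratio of 19.7 (counting interval 3.11 to 820). The fitted log2 fold change of KNAT1 was 4.06, and 6.65 without WT replicate 3. Both genes were called (edgeR adjusted p = 0.000245 and 0.00888), whereas KNAT6 overlapped (0.06) and WUS, the stem cell organiser, had no count. The median over these 3 tested genes was 4.06, or 2.13 with STM and KNAT1 at their bound, and the 6 listed genes summed to 0.822 to 1.31 CPM in trb45 clf29 and 0.391 to 0.47 CPM in WT.

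Leaf polarity genes split. 4 of 14 tested members rose and 7 fell (list median -0.24). On the lower side were the upper-side HD-ZIP genes PHV (AT1G30490), at 6.02, 8.82 and 7.34 CPM in trb45 clf29, against 25.3, 15.8 and 21.4 CPM in WT, and PHB. PHB averaged 21 ± 2.52 CPM in trb45 clf29 and 38.5 ± 4.02 CPM in WT (-0.87). The auxin response factors of the lower leaf side, ARF4 (-0.91) and ETT (-0.72), and the YABBY genes FIL and YAB3 (both -0.57) were also lower. On the higher side were the lower-side gene KAN3 (1.13), AS2 of the upper side (0.66), KAN1 (0.42) and YAB2 (0.40). Among these, PHV had the largest change (log2 fold change -1.5 with an SE of 0.21, edgeR adjusted p = 4.08e-05), and REV, the third HD-ZIP gene, was not called (0.09).

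**Figure D3:**
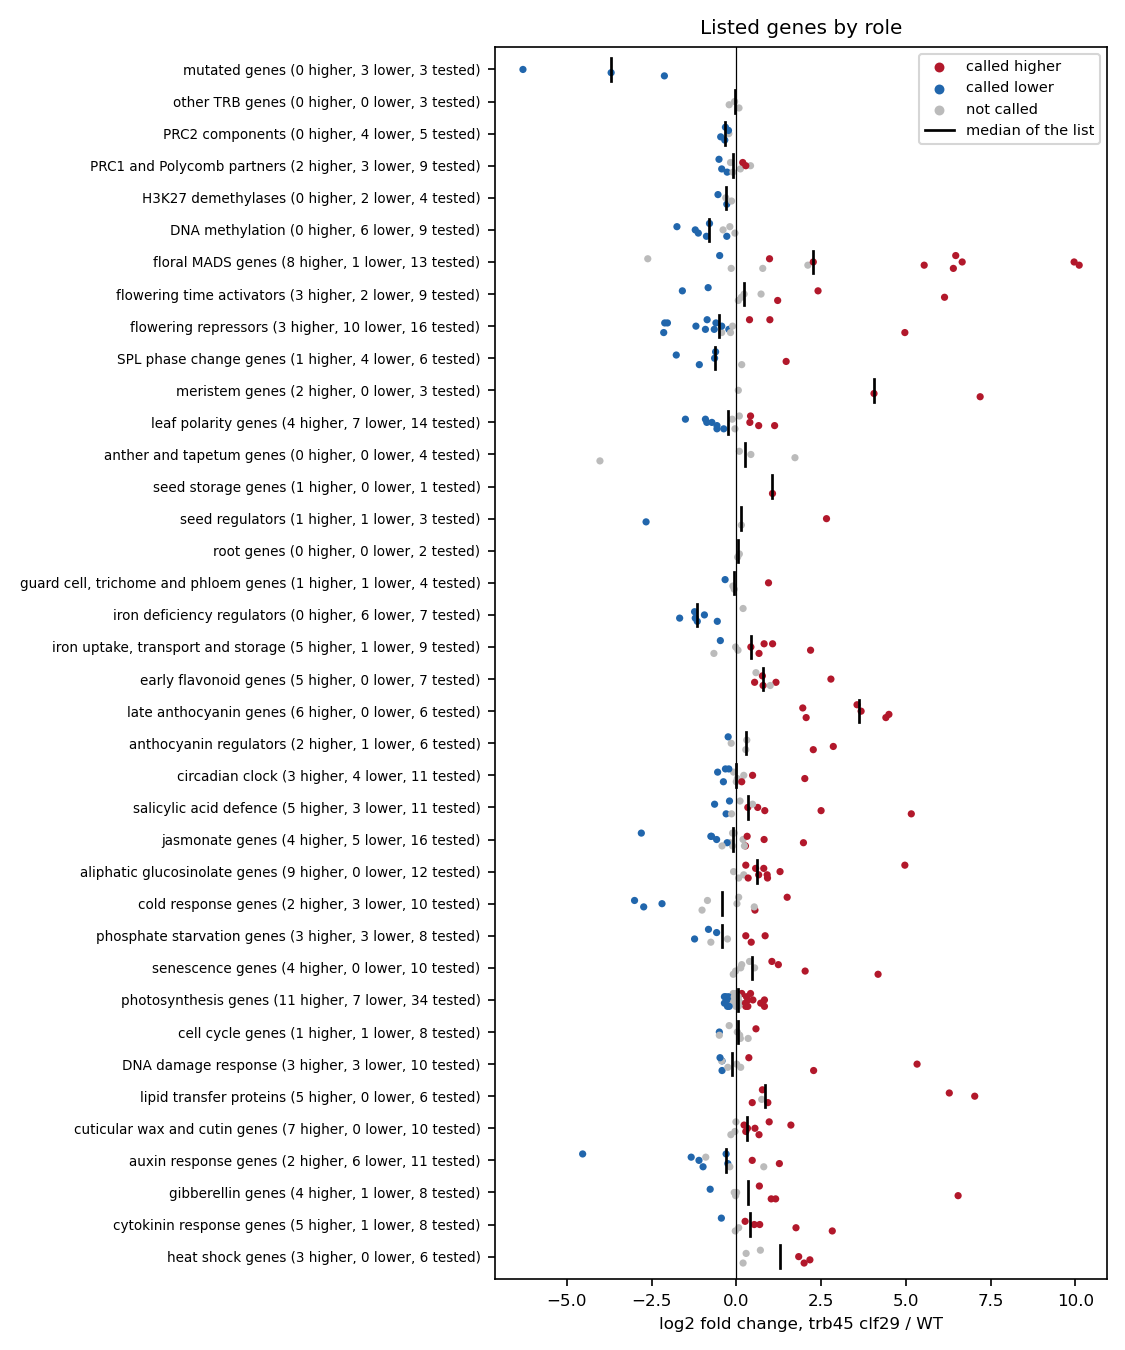
Log2 fold change of trb45 clf29 over WT for the tested members of 38 gene lists, with 1 point per gene, coloured by its call, and a bar at each list's median; fitted values of genes near 0 in 1 genotype depend on the prior count. All 6 late anthocyanin genes lie to the right of 0, and the medians of the DNA methylation genes and iron deficiency regulators lie to the left, at -0.79 and -1.15.

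Pigment genes were higher throughout the late pathway. All 6 late anthocyanin genes rose, with a list median of 3.62. Their summed level was 113 to 148 CPM in trb45 clf29 and 12.3 to 16.3 CPM in WT. DFR (AT5G42800), which makes leucoanthocyanidins, measured 47.8, 36.6 and 45.5 CPM in trb45 clf29, against 2.38, 1.86 and 1.85 CPM in WT. LDOX (AT4G22880), the next enzyme, measured 29.7, 23.2 and 24.4 CPM in trb45 clf29, against 1.34, 1.12 and 0.959 CPM in WT. The trb45 clf29 libraries were all far above WT for both genes (log2 fold change 4.41 with an SE of 0.16, edgeR adjusted p = 1.36e-11 for DFR, and log2 fold change 4.50 with an SE of 0.14, edgeR adjusted p = 3.6e-12 for LDOX). The glycosyltransferase UGT79B1 (3.68), the acyltransferase 5MAT (3.56), the glutathione transferase TT19 (2.06) and the glucosyltransferase gene AT4G14090 (1.96) completed the list. Of 7 early flavonoid genes tested 5 rose and 0 fell (list median 0.79). TT7, the flavonoid 3'-hydroxylase, averaged 16.3 ± 0.982 CPM in trb45 clf29 and 2.35 ± 0.188 CPM in WT (log2 fold change 2.79 and SE 0.18), and CHS, the entry enzyme, averaged 1202 ± 200 CPM in trb45 clf29 and 694 ± 56.3 CPM in WT (log2 fold change 0.79 and SE 0.11). Of 6 regulators tested 2 rose and 1 fell (list median 0.29). The MYB factor PAP1 (AT1G56650) was higher, at 10.6, 8.22 and 10.1 CPM in trb45 clf29, against 1.83, 2.29 and 1.85 CPM in WT (log2 fold change 2.27 with an SE of 0.23, edgeR adjusted p = 1.4e-06), as was its bHLH partner TT8 (2.86). TTG1, the WD40 partner, was lower by 0.24 with overlapping libraries. Its call was lost without WT replicate 2, WT replicate 3, trb45 clf29 replicate 1 or the unnumbered trb45 clf29 library.

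Iron genes changed in both directions. 6 of 7 regulators of the iron deficiency response fell and 0 rose (list median -1.15). Of the Ib bHLH factors, BHLH38 (AT3G56970) measured 6.62, 3.28 and 4.66 CPM in trb45 clf29, against 11.3, 10.4 and 10.5 CPM in WT. BHLH39 (AT3G56980) measured 6.48, 3.28 and 4.66 CPM in trb45 clf29, against 11, 11.6 and 10.8 CPM in WT. Both were highest in trb45 clf29 replicate 1 among the trb45 clf29 libraries. BHLH100 averaged 3.55 ± 0.665 CPM in trb45 clf29 and 6.79 ± 0.0938 CPM in WT, and BHLH101 averaged 0.576 ± 0.206 CPM in trb45 clf29 and 1.36 ± 0.137 CPM in WT. FIT1, their root partner, averaged 0.522 ± 0.161 CPM in trb45 clf29 and 1.66 ± 0.194 CPM in WT. None of these 5 overlapped between genotypes, and FIT1 had the largest change (log2 fold change -1.67 with an SE of 0.30, edgeR adjusted p = 0.000341). Of 9 genes for uptake, transport and storage tested, 5 rose and 1 fell (list median 0.43). The ferritins FER2, FER4 and FER3, which store iron, rose by 2.19, 1.07 and 0.43 on the log2 scale. FER1, of the same family, had too few counts to be tested. The phloem iron transporter OPT3 (AT4G16370) measured 687, 697 and 694 CPM in trb45 clf29, against 371, 421 and 389 CPM in WT, higher in every trb45 clf29 library (log2 fold change 0.82 with an SE of 0.10, edgeR adjusted p = 9.08e-06). NAS4, a nicotianamine synthase, was lower (-0.47), a call lost without WT replicate 1 or trb45 clf29 replicate 1. IRT1 and FRO2, which act in iron uptake by roots, were not called (-0.66 and 0.05).

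Most genes of aliphatic glucosinolate synthesis rose, while the myrosinase genes TGG1 and TGG2, whose products break these compounds down, fell. 9 of the 12 tested members rose and 0 fell, with a list median of 0.61. Their summed level was 1104 to 1565 CPM in trb45 clf29 and 832 to 860 CPM in WT. MAM3 (AT5G23020), a chain elongation enzyme, measured 1.85, 1.93 and 2.03 CPM in trb45 clf29, against 0.0348, 0.0372 and 0.107 CPM in WT (log2 fold change 4.97 with an SE of 0.55, edgeR adjusted p = 3.52e-06; 5.64 without WT replicate 3). CYP79F1 (AT1G16410), which commits elongated methionine to the pathway, measured 233, 332 and 295 CPM in trb45 clf29, against 148, 153 and 156 CPM in WT (log2 fold change 0.91 with an SE of 0.11, edgeR adjusted p = 8.08e-06). Both were higher in all trb45 clf29 libraries, as were CYP79F2 (1.29), BCAT4 (0.92) and CYP83A1 (0.81). The MYB regulators MYB28, MYB29 and MYB76 were not called, with log2 fold changes of 0.07, 0.22 and -0.08.

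Defence and senescence markers were uneven between trb45 clf29 libraries. PR1 (AT2G14610), a salicylic acid marker, measured 0.219, 9.41 and 4.07 CPM in trb45 clf29, against 0.0696, 0.223 and 0.0888 CPM in WT (log2 fold change 5.16 with an SE of 1.1, edgeR adjusted p = 0.0013). PR2 (AT3G57260), a glucanase of the same response, measured 4.84, 40.6 and 25.3 CPM in trb45 clf29, against 3.46, 5.62 and 3.48 CPM in WT (log2 fold change 2.50 with an SE of 0.57, edgeR adjusted p = 0.00213). SAG13 (AT2G29350), a senescence-associated gene, measured 1.24, 6.77 and 4.83 CPM in trb45 clf29, against 0.157, 0.372 and 0.178 CPM in WT (log2 fold change 4.18 with an SE of 0.73, edgeR adjusted p = 0.000249). In each gene trb45 clf29 replicate 1 was the lowest and replicate 2 the highest of the 3, and for PR1 and PR2 the genotypes overlapped. Without trb45 clf29 replicate 2 the log2 fold changes of PR1 and PR2 were 4.07 and 1.85, and without WT replicate 2 that of PR1 was 5.81. 5 of the 11 tested members rose and 3 fell in the salicylic acid list (median 0.34), and the smaller increases were in PR5 (0.34) and the regulators EDS5 (0.84) and SARD1 (0.63). Among these 11 genes, leaving out 1 library at a time gave 2 to 6 higher calls, and scaling by library size alone gave 3 higher and 3 lower. ICS1, which makes salicylic acid precursors, was lower (-0.64), as were EDS1 (-0.30) and NPR1 (-0.20). The calls of EDS5 and SARD1 were lost without WT replicate 3, trb45 clf29 replicate 2 or the unnumbered trb45 clf29 library, and that of SARD1 also without WT replicate 1. PR5 lost its call without WT replicate 1 or trb45 clf29 replicate 2, and NPR1 without WT replicate 3, trb45 clf29 replicate 1 or trb45 clf29 replicate 2.

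Of 10 senescence genes tested 4 rose and 0 fell (list median 0.47), namely SAG13, NAC092, a senescence regulator (2.03; 2.94 without WT replicate 2), SAG21 (1.24) and NYC1, a chlorophyll b reductase (41.2 CPM in trb45 clf29 and 19.9 CPM in WT, log2 fold change 1.05 and SE 0.12). The chlorophyll breakdown genes NYE1, PPH and PAO were not called, and SAG12, the marker of late senescence, averaged 0.0662 CPM in trb45 clf29 and 0 CPM in WT. Among 16 jasmonate genes tested 4 rose and 5 fell, or 2 and 7 with scaling by library size alone (list median -0.11). The defensin PDF1.2 measured 0.12, 0.0772 and 0.235 CPM in trb45 clf29, against 1.15, 0.8 and 1.1 CPM in WT and was lower (log2 fold change -2.80 with an SE of 0.38, edgeR adjusted p = 2.99e-05). VSP1, a vegetative storage protein, measured 0.837, 1.06 and 1.37 CPM in trb45 clf29, against 0.104, 0.41 and 0.32 CPM in WT and was higher (log2 fold change 1.98 with an SE of 0.65, edgeR adjusted p = 0.0201). AOC1 and AOC2, near-identical cyclases of jasmonate synthesis, were lower (-0.58 and -0.75). VSP1 lost its call without WT replicate 1 or the unnumbered trb45 clf29 library, and AOC1 without WT replicate 2, WT replicate 3, trb45 clf29 replicate 1 or the unnumbered trb45 clf29 library. Among the 16 jasmonate genes tested, leaving out 1 library at a time gave 2 to 4 higher and 3 to 6 lower calls.

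Changes of at least 2-fold were called in 1 higher and 3 lower of 10 cold response genes, 0 and 1 of 8 phosphate starvation genes, and 1 and 0 of 11 clock genes. The cold-protection gene COR15A (AT2G42540) measured 4.78, 5.38 and 4.3 CPM in trb45 clf29, against 21.7, 22 and 22.2 CPM in WT. Its relative COR15B (AT2G42530) measured 1.77, 0.887 and 1.21 CPM in trb45 clf29, against 9.71, 11.4 and 9.75 CPM in WT. Neither overlapped between genotypes (log2 fold change -2.19 for COR15A, and log2 fold change -3.0 with an SE of 0.18, edgeR adjusted p = 6.82e-09 for COR15B). CBF3, a regulator of such genes, was also lower (-2.73), whereas COR78 (0.55) and ZAT12 (1.5) were higher. That made 2 higher and 3 lower of 10 (list median -0.42). Among the phosphate genes 3 rose and 3 fell, or 1 and 3 with library size alone or without WT replicate 1 (list median -0.42), from the phosphate transporter PHT1;4 (-1.23) to the acid phosphatase PAP17 (0.85). Of 11 clock genes 3 rose and 4 fell (list median 0.00), with ELF4 of the evening complex at 2.02 and the morning factor CCA1 at -0.38. In this list, leaving out 1 library at a time gave 2 to 3 higher and 3 to 4 lower calls. ZTL (0.16) lost its higher call without WT replicate 1, WT replicate 3, trb45 clf29 replicate 1 or trb45 clf29 replicate 2. PRR7 (-0.32) lost its lower call without WT replicate 1, WT replicate 3, trb45 clf29 replicate 1 or the unnumbered trb45 clf29 library.

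Most surface lipid genes tested were higher. 5 of 6 lipid transfer proteins rose and 0 fell (list median 0.85). LTP4 (AT5G59310), adjacent to LTP3 and nearly identical to it, so that the division of reads between them is uncertain, measured 4.23, 8.01 and 6.36 CPM in trb45 clf29, against 0.139, 0.0558 and 0.0355 CPM in WT (log2 fold change 6.28 with an SE of 0.42, edgeR adjusted p = 2.23e-08; 7.0 without WT replicate 1). Of 10 wax and cutin genes tested 7 rose and 0 fell (list median 0.30), or 5 and 2 with library size alone, and 5 to 7 and 0 to 1 leaving out 1 library at a time. CER1 (-0.16), CER2 (-0.04) and GPAT8 (-0.01) were not called. The alcohol-forming reductase CER4 (AT4G33790) measured 12.7, 13.5 and 14.7 CPM in trb45 clf29, against 5.24, 3.91 and 4.28 CPM in WT (log2 fold change 1.61 with an SE of 0.11, edgeR adjusted p = 2.74e-08). The elongase CUT1 averaged 306 ± 13.1 CPM in trb45 clf29 and 156 ± 9.65 CPM in WT (log2 fold change 0.97 and SE 0.06).

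Hormone lists held changes in both directions. 6 of 11 auxin genes fell and 2 rose (list median -0.30), or 1 rose without WT replicate 1, WT replicate 3 or the unnumbered trb45 clf29 library. IAA29 (AT4G32280), an auxin- and shade-induced repressor, measured 0.0399, 0.193 and 0.117 CPM in trb45 clf29, against 3.57, 2.18 and 2.52 CPM in WT (log2 fold change -4.53 with an SE of 0.45, edgeR adjusted p = 1.09e-06), without overlap. IAA19 (-1.33), IAA5 (-1.1) and IAA1 (-0.98) of the same family were also lower, whereas GH3.5, which conjugates auxin to amino acids, was higher (1.27). Of 8 gibberellin genes 4 rose and 1 fell (list median 0.35). The synthesis gene GA20OX2, at 0 in WT, was at least 4.03-fold higher, GA20OX1 rose by 1.03 and the receptor GID1A by 1.16 on the log2 scale. The single decrease, in GA2OX1 of gibberellin breakdown (-0.77), lost its call in every fit without 1 library except that without the unnumbered trb45 clf29 library. Of 8 cytokinin genes 5 rose and 1 fell (list median 0.40). The cytokinin oxidase gene CKX3 measured 0.997, 0.849 and 1.25 CPM in trb45 clf29, against 0.0348, 0.186 and 0.213 CPM in WT (log2 fold change 2.83 with an SE of 0.36, edgeR adjusted p = 1.39e-05), and CKX5 of the same family was also higher (1.76).

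Stress-related lists gave a few strong members. NAC044 (AT3G01600), a regulator of cell cycle arrest after DNA damage, measured 4.17, 4.51 and 3.89 CPM in trb45 clf29, against 0.0522, 0.186 and 0.071 CPM in WT (log2 fold change 5.33 with an SE of 0.32, edgeR adjusted p = 6.43e-09; 6.04 without WT replicate 2). SMR5, a cyclin-dependent kinase inhibitor of the same response, averaged 0.822 ± 0.109 CPM in trb45 clf29 and 0.166 ± 0.0702 CPM in WT (log2 fold change 2.28 and SE 0.36). The DNA damage list as a whole held 3 higher and 3 lower of 10 (median -0.12), with the master regulator SOG1 lower (-0.42). PARP2 (0.37), also among the higher, lost its call in every fit without 1 library except that without trb45 clf29 replicate 2. Such fits gave 2 to 3 higher and 3 to 4 lower in this list. Of 8 cell cycle genes (list median 0.07) 1 rose, the cytokinesis syntaxin KN (0.58), and 1 fell, CDKB1;1 (-0.50). The CDKB1;1 call was lost without WT replicate 1, WT replicate 3, trb45 clf29 replicate 1 or trb45 clf29 replicate 2, and such fits gave 0 to 2 lower. Of 6 heat shock genes 3 rose and 0 fell (list median 1.28), with HSP70 averaging 12.1 ± 1.36 CPM in trb45 clf29 and 2.69 ± 0.283 CPM in WT (log2 fold change 2.17 with an SE of 0.14, edgeR adjusted p = 1.74e-08).

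Few seed and root markers had enough counts to test. Of 9 seed storage genes, 7 had no count in any of the 6 libraries and 1 was tested, CRA1, a cruciferin that averaged 0.629 CPM in trb45 clf29 and 0.305 CPM in WT (log2 fold change 1.04 and SE 0.32, edgeR adjusted p = 0.0146). CRA1 lost its call without WT replicate 1, WT replicate 3 or trb45 clf29 replicate 1. The list summed to 0.509 to 0.917 CPM in trb45 clf29 and 0.284 to 0.354 CPM in WT. Of 7 seed regulators 3 were tested (list median 0.15), and ABI5, a bZIP factor of abscisic acid signalling, rose (2.66) while DOG1, a dormancy gene, fell (-2.66). Of 8 root genes 2 were tested (list median 0.07), 0 were called and 4 had no count. The list summed to 63.6 to 66.1 CPM in trb45 clf29 and 56.1 to 67 CPM in WT. Nearly all of that was SCR and SHR, transcription factors of root patterning, at 47.8 ± 1.11 CPM in trb45 clf29 and 44.9 ± 4.6 CPM in WT for SCR and 16.5 ± 0.656 CPM in trb45 clf29 and 16.1 ± 0.885 CPM in WT for SHR. Leaf cell-type markers were present in both genotypes (list median -0.08). The guard cell factor FAMA measured 40.2, 37.4 and 41.9 CPM in trb45 clf29, against 43.2, 41.8 and 39.3 CPM in WT and was not called. The phloem sucrose transporter SUC2 was lower (241 CPM in trb45 clf29 and 303 CPM in WT, log2 fold change -0.33 and SE 0.06), and the trichome gene GL2 was higher (0.95). The part of cell composition in these results was not tested.

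Set directly against the single mutants, the combined mutant differed from clf29 in 6012 genes (31.4% of the genes tested) and from trb45 in 5829 (30.5%) by edgeR contrasts of the same fit. Some genes were far above trb45 and nearer to clf29. AG averaged 65.6 CPM in trb45 clf29, 46.9 CPM in clf29, 0.853 CPM in trb45 and 0.738 CPM in WT. That is a log2 difference of 0.48 ± 0.07 SE against clf29 (edgeR adjusted p = 6.38e-05) and of 6.26 ± 0.10 SE against trb45 (edgeR adjusted p = 9.8e-16). LTP3 averaged 23 CPM in trb45 clf29, 17.3 CPM in clf29, 0.272 CPM in trb45 and 0.175 CPM in WT. Its log2 difference was 6.41 ± 0.32 SE against trb45 (edgeR adjusted p = 1.58e-09), and it was not called against clf29 (edgeR adjusted p = 0.126). Others were far above clf29 and nearer to trb45. DFR averaged 43.3 CPM in trb45 clf29, 0.966 CPM in clf29, 57.4 CPM in trb45 and 2.03 CPM in WT, with a log2 difference of 5.48 ± 0.17 SE against clf29 (edgeR adjusted p = 5.9e-12) and of -0.41 ± 0.12 SE against trb45 (edgeR adjusted p = 0.0197). NAC044 averaged 4.19 CPM in trb45 clf29, 0.0763 CPM in clf29, 2.59 CPM in trb45 and 0.103 CPM in WT, a log2 difference of 5.74 ± 0.34 SE against clf29 (edgeR adjusted p = 9.2e-09) and of 0.69 ± 0.21 SE against trb45 (edgeR adjusted p = 0.0234). All single-mutant levels are set beside the same 3 WT libraries.

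For a further group the combined mutant stood outside both single mutants. FLC averaged 12.8 CPM in trb45 clf29, 3.72 CPM in clf29, 0.891 CPM in trb45 and 0.412 CPM in WT, higher in trb45 clf29 by 1.79 ± 0.20 SE against clf29 (edgeR adjusted p = 5.85e-06) and by 3.85 ± 0.23 SE against trb45 (edgeR adjusted p = 1.44e-08). UMAMIT36 averaged 0.287 CPM in trb45 clf29, 2.4 CPM in clf29, 1.37 CPM in trb45 and 11.8 CPM in WT. It was lower in the combined mutant by both tests, at -3.05 ± 0.23 SE against clf29 (edgeR adjusted p = 1.4e-07) and -2.23 ± 0.25 SE against trb45 (edgeR adjusted p = 1.3e-05). MAM3 averaged 1.94 CPM in trb45 clf29, 0.163 CPM in clf29, 0.276 CPM in trb45 and 0.0595 CPM in WT. CMT3 averaged 6.82 CPM in trb45 clf29, 14.9 CPM in clf29, 9.52 CPM in trb45 and 14.8 CPM in WT. Each was called against clf29 and against trb45, with log2 differences of 3.54 and 2.81 for MAM3 and of -1.13 and -0.48 for CMT3. HSP70 averaged 12.1 CPM in trb45 clf29, 4.8 CPM in clf29, 6.64 CPM in trb45 and 2.69 CPM in WT and was called higher than each single mutant.

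Some genes lay between the single mutants. BHLH39 averaged 4.8 CPM in trb45 clf29, 0.159 CPM in clf29, 36.9 CPM in trb45 and 11.1 CPM in WT, a log2 difference of 4.90 ± 0.37 SE against clf29 (edgeR adjusted p = 1.12e-07) and of -2.94 ± 0.20 SE against trb45 (edgeR adjusted p = 8.61e-08). SNZ averaged 4.31 CPM in trb45 clf29, 1.74 CPM in clf29, 15.1 CPM in trb45 and 19 CPM in WT, with a log2 difference of 1.3 ± 0.22 SE against clf29 (edgeR adjusted p = 0.000267) and of -1.81 ± 0.18 SE against trb45 (edgeR adjusted p = 5.46e-06). Several floral, anther, flowering-time and jasmonate genes were lower in the combined mutant than in clf29, though not all lists leaned that way. Against clf29, 2 of 13 floral MADS genes were called higher and 7 lower. The counts were 0 and 4 of 4 anther genes, and 0 and 3 of 9 flowering activators. Jasmonate genes had 4 higher and 4 lower of 16, and flowering repressors 7 higher and 2 lower of 16. MS2, needed for pollen walls, had no count in trb45 clf29 and averaged 5.76 CPM in clf29 (edgeR adjusted p = 3.75e-06). AP1 likewise had no count in trb45 clf29 and averaged 1.12 CPM in clf29 (edgeR adjusted p = 0.000198). SEP3 averaged 26.2 CPM in trb45 clf29, 51.7 CPM in clf29, 0.0261 CPM in trb45 and 0.0242 CPM in WT, with a log2 difference of -0.98 ± 0.09 SE against clf29 (edgeR adjusted p = 9.34e-07). SOC1 averaged 7.97 CPM in trb45 clf29, 25.5 CPM in clf29, 10.5 CPM in trb45 and 14.2 CPM in WT, and VSP1 averaged 1.09 CPM in trb45 clf29, 38.6 CPM in clf29, 0.842 CPM in trb45 and 0.278 CPM in WT. Both were called lower than clf29, by 1.68 and 5.14 on the log2 scale. SOC1 was also called lower than trb45 (log2 difference -0.40, edgeR adjusted p = 0.0075) and so stood below both single mutants.

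**Figure D4:**
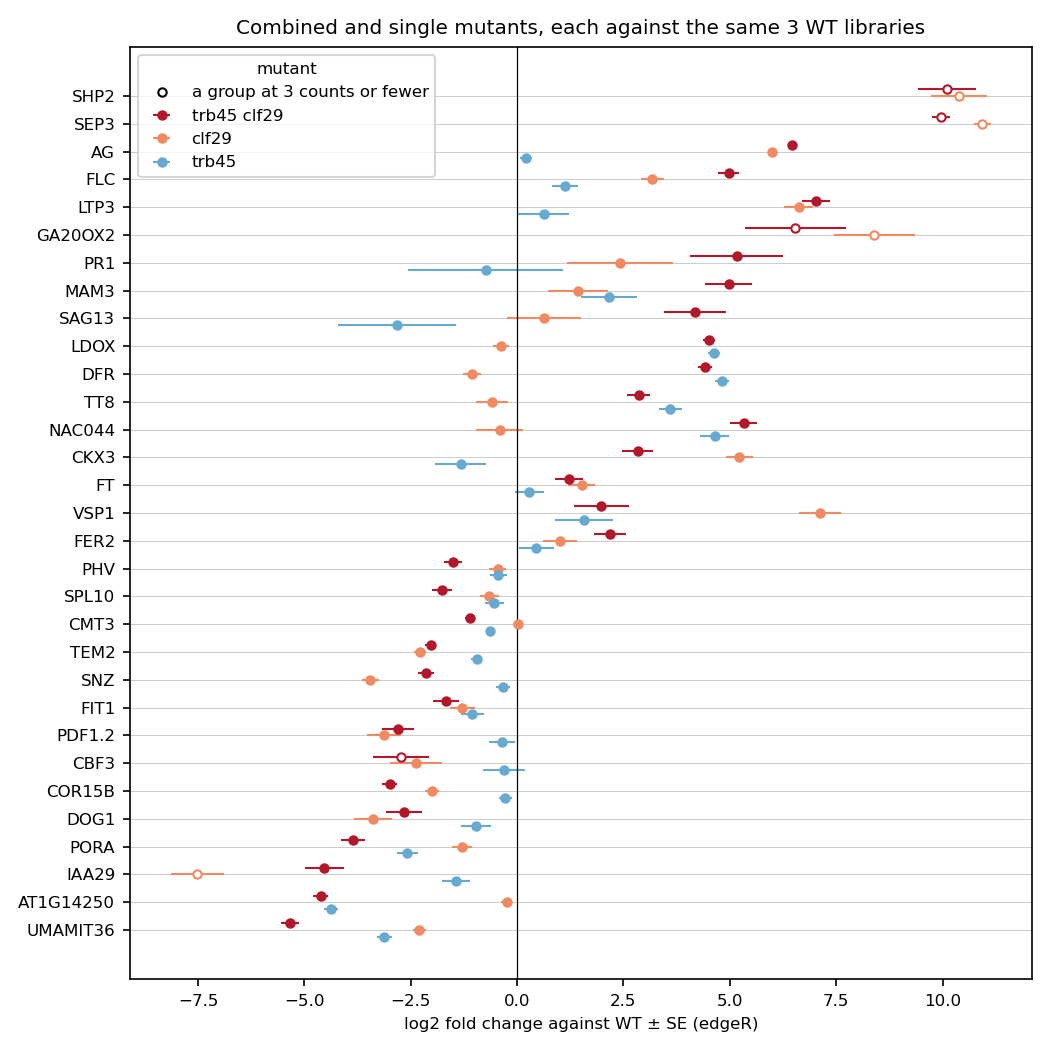
Log2 fold change over WT of selected genes in trb45 clf29, clf29 and trb45, from the same fit and the same 3 WT libraries, for 31 genes, with error bars of 1 SE and open symbols where a group had 3 counts or fewer per library. Values of AG and LTP3 in trb45 clf29 lie near those in clf29, values of DFR and NAC044 near those in trb45, and those of FLC and UMAMIT36 lie farther from 0 in trb45 clf29 than in either single mutant.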

How the data were processed

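Polyadenylated RNA of mature leaves was sequenced in 12 libraries, 3 per genotype. The values used are counts per gene deposited by the authors as 1 table of whole numbers. Per the submitters' processing notes the tools included HISAT2 and DESeq2 and the build was TAIR10, while the counting tool is not given in the sources used here. Columns were matched to samples by name; 1 trb45 clf29 column has no number and was mapped to its group. Library totals were 53545914 to 54047574 counts in the 2 genotypes described.

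All 12 libraries were fitted together with 4 group means in edgeR 4.0.16 (R 4.3.3, limma 3.58.1), after filterByExpr (minimum count 10, minimum total 15), TMM scaling (factors 0.935 to 1.07) and Benjamini-Hochberg adjustment over the 19138 genes tested. Results are called at an adjusted p below 0.05. Where WT had no count, the fold given is the trb45 clf29 mean over 3 counts per WT library, without allowance for error in that mean. Scripts were tested on simulated data. Names and products came from the RefSeq annotation of TAIR10.1, which matched 28009 of 28775 identifiers. Overlapping or near-identical genes can share reads. No pair of libraries within a genotype agreed within sampling noise (chi-square per degree of freedom 6.62 to 29.6), so all were kept. Replicate numbers were not taken as pairing the samples, since the labels do not say what equal numbers share. Alternatives were other scalings, other filters, the 6 libraries alone, DESeq2 1.42.0, a replicate block and leaving out each library.

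Genes named are the mutated genes, up to 4 called members of each list in each direction plus others that show its range, the 10 largest increases and decreases, the 8 largest gains and losses in CPM, and up to 8 genes off in WT. The members, lists and rules were chosen with earlier results of these data known.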

Additional observations from a re-analysis of the deposited data

How the results depend on the processing

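The number of genes called in trb45 clf29 against WT stayed within 1.5 times of 9286 under every alternative run, from 7038 with a replicate block to 9547 with library size alone. Leaving out 1 library at a time gave 7608 to 9134 calls, DESeq2 9354, size factors of the RLE kind 9291, no filter on low counts 9203, a mean of at least 10 counts 9183, and the 6 libraries alone 9058. The block was fitted over the 11 numbered libraries, of which trb45 clf29 has a pair, and 6934 of its calls were among the 9286. Deviations from the group mean correlated at -0.0827 between trb45 clf29 and WT libraries numbered 1 and at -0.119 between those numbered 2. The numbers were therefore not taken as pairing, and other pairs of groups were not checked. The share of calls that were higher was 53.3% with TMM and 37.0% with library size alone, by construction of the scaling. Of 233 called genes that belong to a list or were chosen by the naming rule, 0 changed direction. Of these, 228 were tested under every alternative and 182 kept their call in all of them, while the other 5 were left out of at least 1 alternative. In all, 47 lost their call in at least 1 alternative, 29 under the block and 17 under library size alone; PARP2, ZTL, WSD1, YUC2, SARD1, PSAN, TAA1, VSP2, RING1A and JMJ32 lost it most often, and the cause was not tested. With 3 libraries per genotype and 3 counts equal to 0.0522 to 0.0598 CPM, small differences among genes near that level may have been missed at this depth.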

Other observations

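Beyond the lists, families and gene types picked out after their values were seen showed uneven counts, given here as a description without a test. Of 24 snoRNA genes tested, whose products guide modification of ribosomal RNA, 14 fell, 13 of them by at least 2-fold, and 0 rose, with a median log2 fold change of -1.3 against 0.02 over all genes. Their summed level was 9.45 to 11.1 CPM in trb45 clf29, 16.1 to 20.1 CPM in clf29, 10.2 to 11.2 CPM in trb45 and 18.4 to 22.9 CPM in WT. Most snoRNAs lack poly(A) tails, and the libraries were made from polyadenylated RNA. Of 24 miRNA genes tested, 2 rose and 9 fell (median -0.75). MIR162a averaged 0.83 ± 0.0548 CPM in trb45 clf29 and 2.22 ± 0.457 CPM in WT (log2 fold change -1.42 with an SE of 0.20, edgeR adjusted p = 3.06e-05), and MIR775 averaged 0.0525 ± 0.0236 CPM in trb45 clf29 and 0.325 ± 0.124 CPM in WT (-2.58). MIR163, which was higher, averaged 10.2 ± 0.215 CPM in trb45 clf29 and 7.61 ± 0.629 CPM in WT (0.42). These are levels of precursor transcripts, not of mature miRNAs.

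Among 81 product families with at least 20 tested genes, immune receptors of the TIR-NBS-LRR class had 3 higher and 22 lower of 47 (median -0.33). Eukaryotic aspartyl proteases had 17 higher and 2 lower of 46, thioredoxin superfamily proteins 16 and 2 of 41, and calcium-binding EF-hand proteins 13 and 5 of 30. The nodulin MtN21 family of amino acid transporters, which holds UMAMIT14 and UMAMIT36, had 12 higher and 10 lower of 33, and MATE exporters 18 and 12 of 40. Reads shared between close family members are uncertain.

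Some neighbouring genes moved in the same direction. The glutathione transferases GSTF7, GSTF6, GSTF5 and GSTF4 were all called higher. GSTF6 measured 12.6, 29.5 and 21.3 CPM in trb45 clf29, against 2.58, 3.5 and 2.65 CPM in WT (log2 fold change 2.86 with an SE of 0.30, edgeR adjusted p = 2.29e-06). GSTF7 measured 0.797, 10 and 6.24 CPM in trb45 clf29, against 0.888, 0.949 and 1.3 CPM in WT, with trb45 clf29 replicate 1 below every WT library. The 5 genes from AT4G15670 to AT4G15710, of which 4 are thioredoxin superfamily genes, were also called higher, with AT4G15680 at 3.47, 4.24 and 4.01 CPM in trb45 clf29, against 0.418, 0.261 and 0.426 CPM in WT (log2 fold change 3.39 with an SE of 0.20, edgeR adjusted p = 5.97e-09). A run holding the LEA gene UNE15, the histone gene HTA4 and the uncharacterized AT4G13572 and AT4G13575 was lower. HTA4 averaged 2.34 CPM in trb45 clf29, 5.81 CPM in clf29, 0.16 CPM in trb45 and 5.72 CPM in WT, below WT (log2 fold change -1.29 with an SE of 0.19, edgeR adjusted p = 7.11e-05) but above trb45, with a log2 difference of 3.84 ± 0.30 SE against trb45 (edgeR adjusted p = 3.23e-07). AT4G13575 averaged 7.64 CPM in trb45 clf29, 16 CPM in clf29, 0.254 CPM in trb45 and 17.2 CPM in WT, also between trb45 and WT. The runs were noticed after the values were seen, and no test of neighbourhood was made.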
